A study of Mus musculus with 8 samples.

Results

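Untreated hepatocytes from mice with a liver-targeted deletion of Slc39a8 (LSKO) were compared with untreated wild-type hepatocytes (WT). The comparison used 4 of the 8 RNA-seq libraries of the series, 2 of LSKO cells and 2 of WT cells, chosen by genotype and by the absence of any added metal. The LSKO cells came from Alb-cre(+/+);Slc39a8(F/F) mice, in which the albumin promoter, active in hepatocytes, drives the Cre recombinase. The WT cells came from Slc39a8(F/F) mice, which carry the same floxed alleles without Cre. All mice were C57BL/6 males in post-natal week 8, and both groups of cells were kept in serum-free medium with dexamethasone and antibiotics. The other libraries of the series, used below beside the comparison, were of LSKO cells given 2 µM manganese, iron, selenite or zinc. Each of these treated groups held 1 library. Nothing in the labels or methods says that replicates came from different mice, and each p therefore covers only the spread between these libraries, which may be technical.

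Slc39a8 encodes ZIP8, a membrane transporter that carries manganese, zinc, iron and cadmium ions, and selenite together with zinc, into the cell. In the liver ZIP8 is known for recovering manganese from the bile. Hepatocytes are the main site of urea synthesis, of drug and bile acid metabolism and of plasma protein secretion, and they lose part of this program in culture.

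Slc39a8 (ENSMUSG00000053897, chromosome 3 of GRCm38, 135825279 to 135888572) had 185 and 51 reads in the LSKO libraries, against 367 and 356 in the WT libraries. Scaled to library size with edgeR's TMM factors (normalized CPM below), the levels were 8.15 and 1.88 in LSKO cells and 12.7 and 15.5 in WT cells. Both LSKO libraries lay below both WT libraries, but they differed from each other, with LSKO replicate 1 at 57.7% of the WT mean and LSKO replicate 2 at 13.3%. The log2 fold change was -1.52 (standard error 0.443, edgeR adjusted p = 0.0426). Leaving out LSKO replicate 1 gave -2.88 and leaving out LSKO replicate 2 gave -0.78, and the gene was no longer called without WT replicate 1 (edgeR adjusted p = 0.178) or WT replicate 2 (0.256), or by DESeq2 over 8 libraries (0.446) or over the 4 untreated ones (0.385).

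The deposited values are raw read counts per gene. Reads in genes numbered 21886740 and 26837212 in the LSKO libraries and 27731054 and 21698505 in the WT libraries. The summary lines of the count files differ between the 2 groups. In these, 0 reads were set aside for low alignment quality in either LSKO library, against 680199 and 597226 in the WT libraries, and unaligned reads made up 9.44% and 10.0% in LSKO cells and 4.13% and 4.53% in WT cells. In the untreated libraries this difference cannot be told apart from genotype. In the libraries of LSKO cells given iron, selenite or zinc, 592678 to 639398 reads were set aside for low quality and 4.26% to 4.94% were unaligned, close to the WT libraries, and their values are given where they bear on a result. The manganese library differed more, with 72.2% of its reads in genes, 4.48% in no gene and 5.19% ambiguous. The untreated libraries had 39.3% to 41.8%, 42.3% to 45.7% and 1.25% to 1.34%. Levels in the manganese library, above all of genes that overlap on opposite strands, may therefore not be comparable with the other libraries. The strand setting of the counting is not given in the sources used here, so reads of genes that overlap on opposite strands cannot be told apart. Of the genes named below, this touches Fgg, Sult1a1, Bnip3, Gapdh, Irf7, Tap1, Cxcl10, Ddit3, Aph1a, Stab1, Stab2, Slc30a4 and Serpina1c, beside those marked where they appear.

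Of 12442 protein-coding genes tested, 739 were higher in LSKO cells (5.94%), 250 were lower (2.01%) and 11453 were not called. Genes were called in a quasi-likelihood fit (edgeR) of the whole series where the log2 fold change exceeded 0.5 in either direction with an adjusted p (Benjamini-Hochberg) under 0.05. In 31.9% of the tested genes both LSKO libraries lay above both WT libraries, and in 29.0% both lay below, so separated groups were common and were no call by themselves. The median log2 fold change was 1.00 among the higher genes, -0.73 among the lower genes and 0.00 among all protein-coding genes tested. A change beyond 1 on the log2 scale was seen in 368 of the higher and 65 of the lower genes. With 1 library left out, the spread comes from the pair of the other group alone. The log2 differences between replicates had a standard deviation of 0.211 in the LSKO pair and 0.189 in the WT pair. A call lost in this way can therefore reflect a change of spread as well as of level. The number of calls moved with each library left out. It was 318 higher and 55 lower without WT replicate 1, 321 and 65 without WT replicate 2, 1070 and 437 without LSKO replicate 1, and 461 and 87 without LSKO replicate 2. DESeq2 over the 8 libraries called 522 higher and 115 lower.

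**Figure D1:**
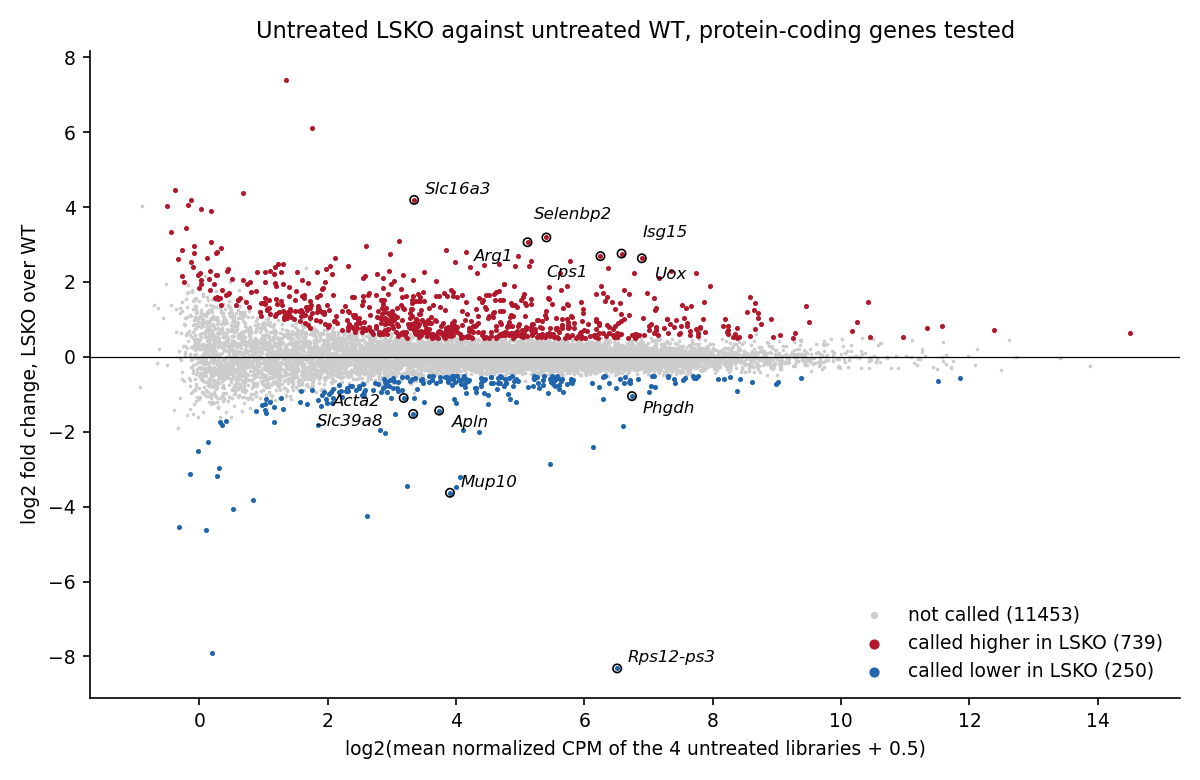
Log2 fold change of untreated LSKO over untreated WT cells (vertical axis) against the log2 of the mean normalized CPM of the 4 libraries plus 0.5 (horizontal axis), 1 point for each of 12442 protein-coding genes. Red points are the 739 genes called higher and blue points the 250 called lower, with named genes circled.

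Among genes that averaged 100 or more normalized counts, the largest rises took in liver enzymes, a lactate exporter and genes induced by interferon. Arg1 (chromosome 10, 24915221 to 24927484), which encodes arginase, the last enzyme of the urea cycle, had 47.8 and 74.2 normalized CPM in LSKO cells, against 7.43 and 7.20 in WT cells (log2 fold change 3.06, standard error 0.189, edgeR adjusted p = 3.41e-06). Cps1 (chromosome 1, 67123026 to 67231259), the first and rate-limiting enzyme of that cycle, had 96.1 and 166 in LSKO cells, against 21.3 and 19.3 in WT cells (2.69, standard error 0.208, edgeR adjusted p = 1.76e-05). For both genes the WT libraries lay close together, and LSKO replicate 2 stood above LSKO replicate 1. Uox, the urate oxidase of peroxisomes, had 156 and 252 in LSKO cells and 32.7 and 33.2 in WT cells (2.63).

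The same order, with both LSKO libraries above both WT libraries and LSKO replicate 2 the higher of the 2, held for the other genes of this set. Slc16a3 (chromosome 11, 120948480 to 120960868) encodes the lactate exporter MCT4 and had the largest rise of these, with 13.8 and 22.9 normalized CPM in LSKO cells and 1.01 and 1.00 in WT cells (log2 fold change 4.19, standard error 0.277, edgeR adjusted p = 6.00e-06). Selenbp2, a selenium-binding protein gene with a near-identical paralog that may share its reads, had 3.19. Acnat2, an acyltransferase gene of peroxisomes that overlaps an exon on the opposite strand, had 3.11, and the antimicrobial peptide gene Defb1 had 2.75. The 12 largest rises among genes at that level were called under each alternative in which they were tested, each library left out included, with Acnat2 not tested among genes free of opposite-strand exons.

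**Figure D2:**
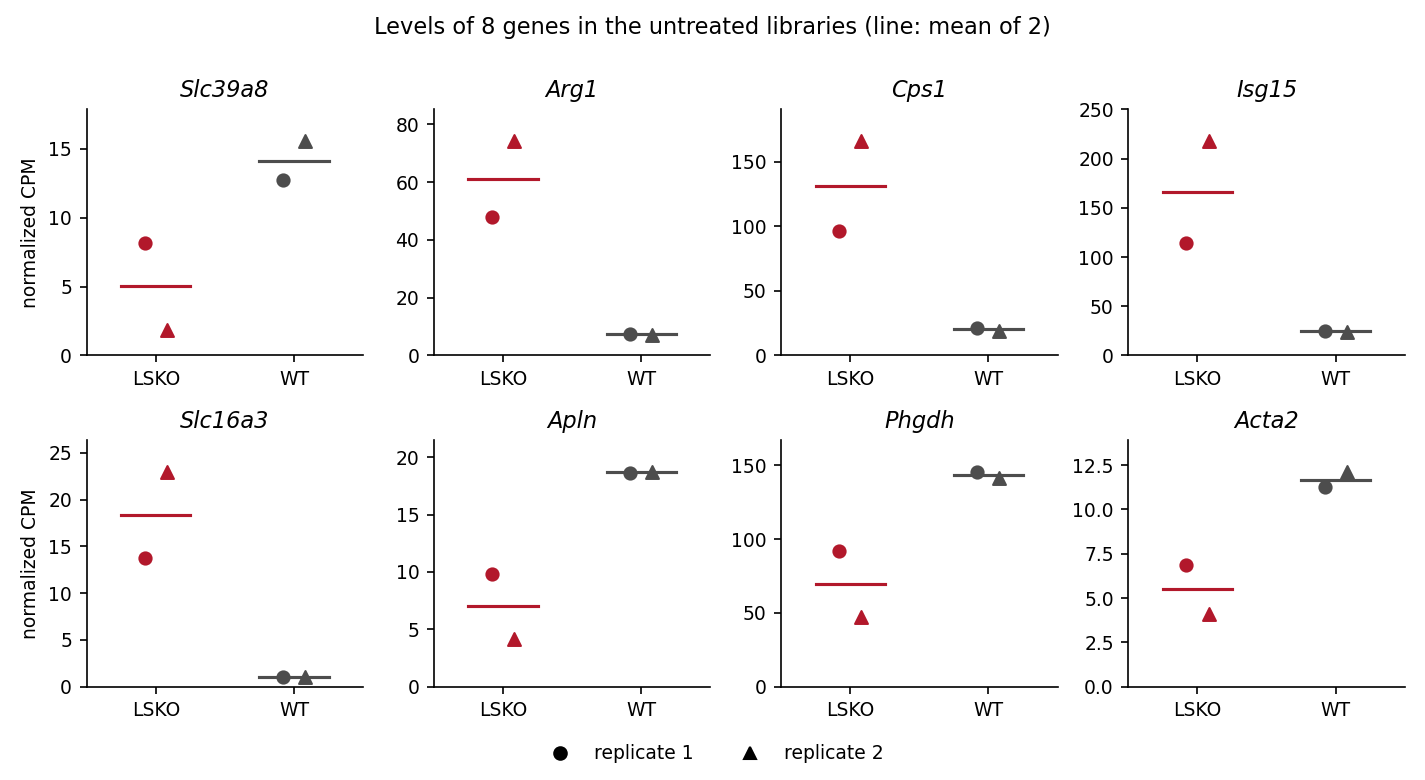
Normalized CPM (vertical axes, from 0) of 8 genes in the untreated LSKO libraries (red, left) and the untreated WT libraries (grey, right). Circles are replicate 1, triangles are replicate 2 and lines are means of 2. The LSKO libraries lie above the WT libraries for Arg1, Cps1, Isg15 and Slc16a3 and below them for Slc39a8, Apln, Phgdh and Acta2, and LSKO replicate 2 is the farther from WT in each.

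Of 38 genes of the urea cycle and amino acid breakdown, 19 were higher, 0 were lower and 19 were not called, with a median log2 fold change of 0.65. Beside Arg1 and Cps1, Hpd of tyrosine breakdown had 25.2 and 39.8 normalized CPM in LSKO cells and 8.09 and 5.63 in WT cells (2.23), and the urea cycle gene Otc had 6.70 and 7.43 in LSKO cells and 3.92 and 3.53 in WT cells (0.92). Of 20 genes of the methionine cycle and transsulfuration, 10 were higher (median 0.50). Cdo1, the cysteine dioxygenase that starts taurine synthesis, had 305 and 473 in LSKO cells and 110 and 100 in WT cells (1.89). Without WT replicate 1 and WT replicate 2, 15 and 12 urea cycle and amino acid genes were higher, and 6 and 4 genes of the methionine cycle. Without LSKO replicate 2 the methionine cycle count was 4.

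Genes of gluconeogenesis and glucose handling held 15 rises and 1 fall among 28 tested (median 0.68). G6pc, the glucose-6-phosphatase that releases glucose, had 3.17 and 4.01 normalized CPM in LSKO cells, against 0.972 and 1.18 in WT cells (1.75, standard error 0.282, edgeR adjusted p = 0.00207). Slc37a4, which carries its substrate, had 17.6 and 23.8 in LSKO cells and 6.46 and 6.28 in WT cells (1.70). The groups did not overlap for either gene. Genes that in the liver lobule are expressed near the portal vein and genes expressed near the central vein both held rises, 13 of 24 (median 0.63) and 7 of 17 (median 0.57). Without WT replicate 2, the counts were 8 for glucose handling, 8 for periportal and 2 for pericentral genes, the last also 2 without WT replicate 1 and 4 without LSKO replicate 2.

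Among lists of genes that handle drugs and bile acids, those of P450, conjugating and bile acid genes below held rises and no called fall. Each also held members that were not called. Of 21 glutathione S-transferases, which also conjugate drugs, 8 were higher and 1, Gsta1, was lower (-0.94). Of 35 genes of cytochrome P450 families 1 to 3, which oxidize drugs and steroids, 19 were higher and 16 were not called (median 1.00). Cyp3a11 had 83.2 and 135 normalized CPM in LSKO cells and 36.4 and 31.6 in WT cells (1.69, standard error 0.183, edgeR adjusted p = 0.000157), and Cyp2e1, which oxidizes ethanol, had 90.3 and 145 in LSKO cells and 46.6 and 37.0 in WT cells (1.49). Several P450 genes are near-identical and may share reads. Of 23 conjugating UDP-glucuronosyltransferases and sulfotransferases, 11 were higher (median 0.90), with Sult1d1 at 1.88 and Sult1a1 at 1.73. Of 23 genes of bile acid synthesis and transport, 11 were higher (median 0.77). Baat, which joins bile acids to amino acids, had 9.07 and 15.7 in LSKO cells and 3.12 and 2.97 in WT cells (2.03), and Abcb4, the phospholipid exporter of the bile canaliculus, had 74.1 and 106 in LSKO cells and 32.3 and 33.5 in WT cells (1.46). Nr1i2, the receptor PXR that senses drugs, had 15.5 and 22.96 in LSKO cells and 7.91 and 8.29 in WT cells (1.25). Without WT replicate 1, the counts were 11 P450 genes, 6 conjugating genes and 4 bile acid genes, and without WT replicate 2 they were 9, 7 and 8. DESeq2 over the 8 libraries called 7 bile acid genes higher.

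Lists of plasma proteins that the liver secretes held 16 to 18 rises each. Of 21 acute phase proteins, 17 were higher (median 0.78), of 27 genes of coagulation and fibrinolysis 17 (median 0.71), of 32 plasma carriers and apolipoproteins 18 (median 0.64) and of 27 complement genes 16 (median 0.58). Coagulation and complement held 1 lower gene each, lost without either WT replicate and without LSKO replicate 2, and 4, 9, 14 and 10 members of the lists were not called. Fga and Fgg, chains of fibrinogen, had 261 and 440 and 148 and 237 normalized CPM in LSKO cells, against 76.2 and 72.5 and 62.6 and 55.4 in WT cells (2.24 and 1.71). F10, a clotting factor, had 63.7 and 89.7 in LSKO cells and 25.5 and 18.8 in WT cells (1.79). The groups did not overlap for any of the 3. Among acute phase proteins, Orm2 had 39.9 and 52.9 in LSKO cells and 10.6 and 14.7 in WT cells (1.89), and Crp had 32.2 and 45.3 in LSKO cells and 13.7 and 13.5 in WT cells (1.51). Apof, which regulates cholesteryl ester transfer between lipoproteins, had 195 and 346 in LSKO cells and 54.7 and 54.7 in WT cells (2.31). Apoa1, the main protein of HDL, had 1.46. Alb, albumin, had 25150 and 31506 in LSKO cells and 18618 and 17708 in WT cells (0.64). C1qa, C1qb and C1qc, whose products macrophages make, were among the complement rises, with C1qa at 14.7 and 18.9 in LSKO cells and 9.54 and 9.51 in WT cells (0.82). Without WT replicate 1 and WT replicate 2, the counts were 11 and 8 for acute phase proteins, 9 and 8 for coagulation, 13 and 11 for plasma carriers and 5 and 4 for complement.

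Markers of some cell types differed between LSKO and WT cells. The summed level of 12 hepatocyte markers was 31500 and 39800 normalized CPM in LSKO cells and 23200 and 22200 in WT cells, and 9 of the 12 were higher, while Apob, Trf and Serpina1c were not called (0.14, -0.30 and 0.07). The summed level of 16 markers of sinusoidal endothelial cells was 294 and 224 in LSKO cells and 358 and 381 in WT cells, and that of 19 markers of Kupffer cells and macrophages was 461 and 526 in LSKO cells and 421 and 399 in WT cells. Of 17 Kupffer cell and macrophage markers tested, 4 were higher, 1, Mrc1, was lower and 12 were not called (median 0.16). Markers of stellate cells and fibroblasts were nearly level, with sums of 84.9 and 86.1 in LSKO cells and 79.3 and 83.8 in WT cells. Those of cholangiocytes summed to 75.5 and 61.7 in LSKO cells and 95.1 and 97.0 in WT cells. The markers of lymphocytes summed to 2.24 to 2.42 in LSKO cells and 2.49 to 2.50 in WT cells. Cd8a and Nkg7 had 0 reads in each untreated library. In bulk libraries fewer cells of a type and less RNA per cell cannot be told apart, and the part of cell makeup in the rises was not tested. Hnf4a, the main transcription factor of hepatocyte identity, had 189 and 245 in LSKO cells and 135 and 147 in WT cells (0.63, standard error 0.112, edgeR adjusted p = 0.00393), a smaller rise than those of the enzymes above.

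Genes that type I and type II interferons induce had the largest median of the pathway lists, after which came the P450 genes. Interferon signalling acts through a response element in the promoters of its target genes, searched here as GAAA, any 2 bases and GAAA. Of 39 interferon-stimulated genes tested, 31 were higher, 0 were lower and 8 were not called, with a median log2 fold change of 1.07. Isg15 (chromosome 4, 156199424 to 156200818), a ubiquitin-like protein, had 114 and 218 normalized CPM in LSKO cells, against 25.2 and 23.9 in WT cells (2.76, standard error 0.238, edgeR adjusted p = 3.61e-05). Rsad2, the antiviral enzyme viperin, had 102 and 175 in LSKO cells and 28.3 and 24.96 in WT cells (2.38). Ifit1, which binds foreign RNA, had 42.2 and 78.6 in LSKO cells and 9.65 and 11.2 in WT cells (2.55). The groups lay well apart in each, and LSKO replicate 2 was the higher LSKO library in 39 of the 39 genes of the list.
The promoters of 4 of the highest genes are shown because they carry the element, in capitals in either orientation. They are stretches of RefSeq windows on GRCm38.p6 that end 51 bases before the start, chr4:156200869-156200988 (minus strand), chr19:34640719-34640838 (plus), chr19:34583359-34583478 (plus) and chr12:26456503-26456622 (minus).
Isg15: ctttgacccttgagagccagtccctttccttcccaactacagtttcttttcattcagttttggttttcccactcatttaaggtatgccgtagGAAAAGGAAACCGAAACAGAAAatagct
Ifit1: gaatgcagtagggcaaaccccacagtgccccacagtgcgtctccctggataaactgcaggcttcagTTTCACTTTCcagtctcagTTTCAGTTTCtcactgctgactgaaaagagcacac
Ifit3: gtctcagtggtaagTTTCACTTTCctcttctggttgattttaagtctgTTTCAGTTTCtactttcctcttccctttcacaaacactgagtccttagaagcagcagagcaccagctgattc
Rsad2: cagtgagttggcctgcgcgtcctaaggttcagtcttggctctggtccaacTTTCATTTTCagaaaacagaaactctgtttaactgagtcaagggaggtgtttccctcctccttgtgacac
Windows of 300 bases were at hand for 31 of the 39 genes. Of these, 18 held the element or its reverse (TTTC, any 2 bases, TTTC), and so did 15 of the 25 called higher, against 3.99% of all 27025 genes with a window. Isg15 has 3 overlapping matches, Ifit1 and Ifit3 have 2 each and Rsad2 has 1. A match describes the letters and does not show a bound site.

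**Figure D3:**
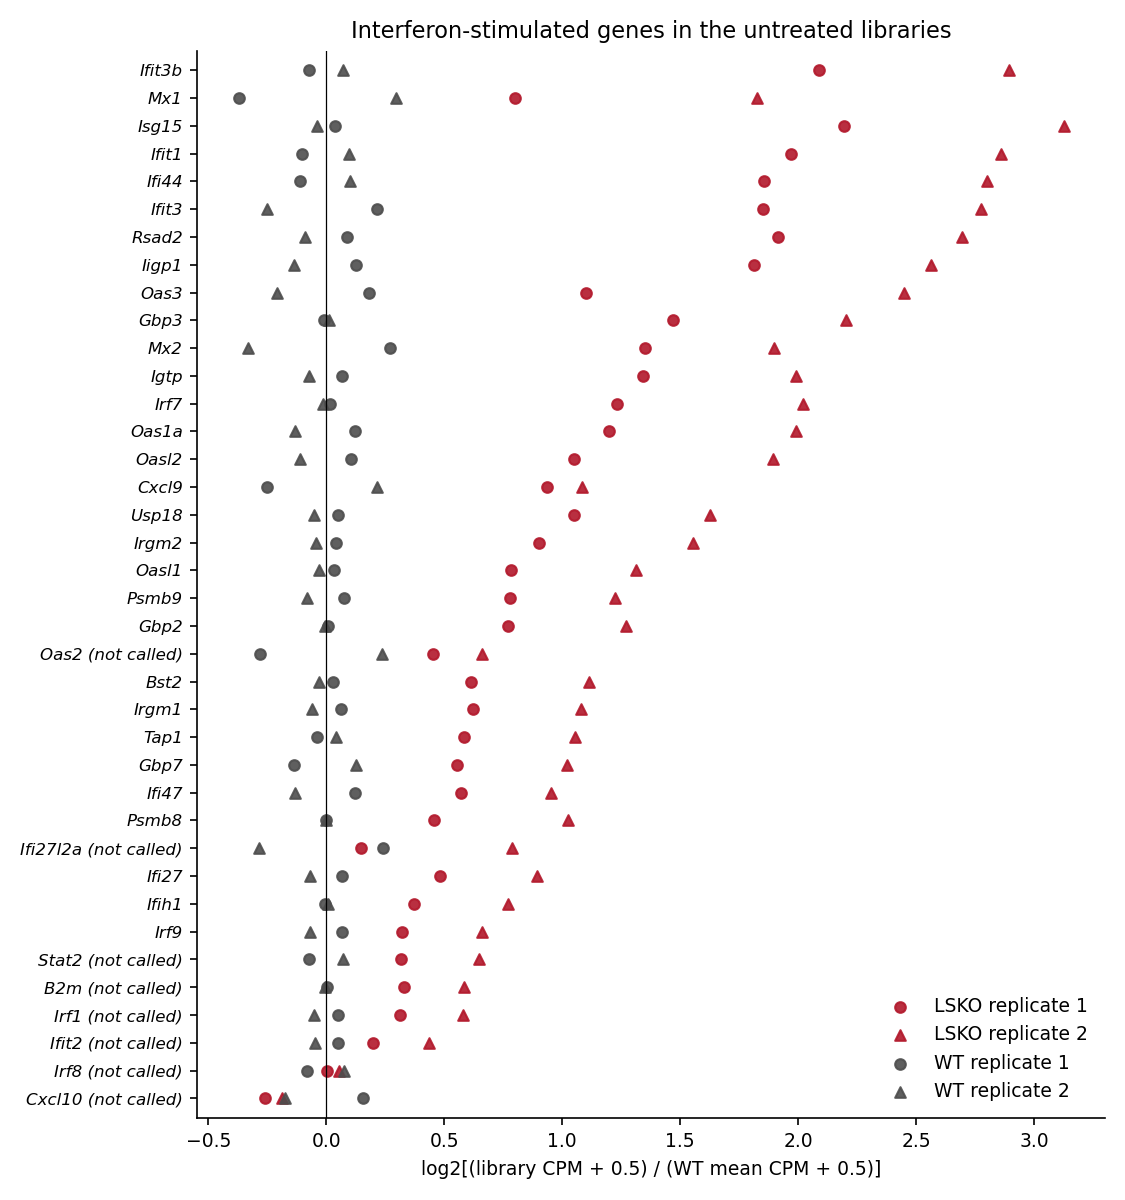
Log2 ratio of each untreated library to the WT mean (horizontal axis, with 0.5 added to each normalized CPM) for 38 of the 39 interferon-stimulated genes (vertical axis), with LSKO libraries in red and WT libraries in grey, circles for replicate 1 and triangles for replicate 2. In nearly all genes the LSKO libraries lie to the right of the WT libraries and LSKO replicate 2 lies farthest out, while Irf8 lies among the WT values and Cxcl10 at or below them.

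The rise took in sensors, effectors and transcription factors of the response. Zbp1, a sensor of Z-form nucleic acid, had 37.2 and 68.9 normalized CPM in LSKO cells and 9.58 and 6.76 in WT cells (2.69, standard error 0.259, edgeR adjusted p = 7.49e-05). Irf7, which amplifies interferon production, had 115 and 200 in LSKO cells and 49.3 and 48.3 in WT cells (1.69). The guanylate-binding protein gene Gbp3 rose by 1.93 on the log2 scale. The chemokine gene Cxcl10 did not follow, with 8.63 and 9.12 in LSKO cells and 11.7 and 9.21 in WT cells (-0.24, edgeR adjusted p = 0.316). Reads of Ifit3 and Ifit3b, which are nearly identical, may have been divided between them. Of 18 genes of antigen presentation, 9 were higher (median 0.51), such as the class I gene H2-Q7 with 68.7 and 105 in LSKO cells and 35.9 and 41.1 in WT cells (1.18), and the peptide transporter Tap1 (0.85), which stands in both lists. Without WT replicate 1 and WT replicate 2, 19 and 15 interferon-stimulated genes and 3 and 1 genes of antigen presentation were higher, and without LSKO replicate 2 the antigen presentation count was 4. The Kupffer cell marker Clec4f had 12.1 and 20.6 in LSKO cells and 6.94 and 6.41 in WT cells (1.29). Most markers of Kupffer cells and macrophages were not called, with 4 higher and 1 lower of 17 tested. The part of Kupffer cells in these rises was not tested.

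Genes of glycolysis, lactate export and the hypoxia response held 9 higher and 0 lower of 32 tested (median 0.36), with 14 higher without LSKO replicate 1 and 6 when genes that overlap an opposite-strand exon were left out. Beside Slc16a3, Bnip3, a mitophagy receptor induced by hypoxia, had 178 and 285 normalized CPM in LSKO cells, against 55.2 and 52.2 in WT cells (2.11, standard error 0.174, edgeR adjusted p = 2.83e-05). Egln3, an oxygen-sensing prolyl hydroxylase, had 10.2 and 15.1 in LSKO cells and 4.58 and 3.75 in WT cells (1.597). Pdk1, a kinase that inhibits pyruvate dehydrogenase, had 24.6 and 36.2 in LSKO cells and 13.5 and 11.7 in WT cells (1.27). The lactate dehydrogenase gene Ldha had 1372 and 1822 in LSKO cells and 857 and 823 in WT cells (0.93). In each of these genes both LSKO libraries lay above both WT libraries. Gapdh and Vegfa, a glycolytic enzyme and a hypoxia-induced growth factor, were not called (0.43 and 0.25). Hypoxia-inducible factors bind the core ACGTG. The 150 bases before a RefSeq start of the genes with the largest rises are shown for it, with matches in either orientation in capitals. They lie at chr11:120948917-120949066 (plus strand) and chr7:138909507-138909656 (minus) of GRCm38.p6. The Slc16a3 window lies within the gene span given above, because the RefSeq start used is downstream of the start of that span.
Slc16a3: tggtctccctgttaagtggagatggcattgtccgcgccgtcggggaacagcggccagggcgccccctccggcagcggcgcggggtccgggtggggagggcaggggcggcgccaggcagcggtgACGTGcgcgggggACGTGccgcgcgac
Bnip3: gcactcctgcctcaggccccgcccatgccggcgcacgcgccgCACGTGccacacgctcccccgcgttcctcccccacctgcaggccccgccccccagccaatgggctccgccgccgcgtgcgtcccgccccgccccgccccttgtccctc
Slc16a3 has 2 matches and Bnip3 has 2 that overlap. The letters ACGTG or CACGT stood in the windows of 5 of the 9 higher genes and of 21 of 29 genes of the list, against 21.8% of all genes with a window.

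Fewer genes fell, with a median log2 fold change of -0.73, against 1.00 among the higher genes. The largest single falls are given further below. In 10.6% of the tested genes all LSKO libraries of the series, metal-treated ones included, lay below both WT libraries. Among the called ones, Apln, the peptide hormone apelin (X chromosome, 48025146 to 48034853), followed Slc39a8 with 9.82 and 4.16 normalized CPM in LSKO cells and 18.7 and 18.7 in WT cells (-1.44, standard error 0.287, edgeR adjusted p = 0.00732). Tuba1a, an alpha-tubulin, had 19.9 and 16.7 in LSKO cells and 41.9 and 42.3 in WT cells (-1.20), and Cep85, a centrosomal protein, had 50.3 and 46.9 in LSKO cells and 106 and 106 in WT cells (-1.13). The groups did not overlap and the WT libraries of each gene were nearly equal. Acta2, smooth muscle actin, had 6.87 and 4.12 in LSKO cells and 11.3 and 12.1 in WT cells (-1.10), and its neighbour on chromosome 19, the deubiquitinase gene Stambpl1, had 8.99 and 4.34 in LSKO cells and 15.6 and 14.6 in WT cells (-1.19). The other genes of this set were Nbl1, which binds bone morphogenetic proteins (-1.10), and Xirp2, Mmp12, Tnfrsf26 and Hdx (-1.25, -1.12, -1.09 and -1.05). Xirp2, Mmp12, Tnfrsf26 and Hdx overlap an exon on the opposite strand, so their manganese levels, used to choose this set, may not be comparable. Of these 12 genes, Slc39a8 and Phgdh included, 2 were still called without WT replicate 1, 3 without WT replicate 2, 10 without LSKO replicate 2 and 6 by DESeq2 over the 8 libraries.

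The transcription factor ATF4 induces its targets when amino acids are short. Of 31 of them tested, 0 were higher, 7 were lower and 24 were not called, with a median log2 fold change of -0.33. Phgdh, the first enzyme of serine synthesis, had 92.2 and 47.0 normalized CPM in LSKO cells, against 145 and 142 in WT cells (-1.05, standard error 0.221, edgeR adjusted p = 0.00959). Psat1, the next enzyme of that pathway, had 170 and 122 in LSKO cells and 229 and 219 in WT cells (-0.61). Slc7a11, the cystine importer, had 124 and 75.7 in LSKO cells and 176 and 169 in WT cells (-0.80). LSKO replicate 2 was the lowest library for all 3. Ddit3, the stress transcription factor CHOP, had -0.70 and the glutathione-degrading Chac1 had -0.65, while Atf4 itself had 481 and 453 in LSKO cells and 551 and 513 in WT cells (-0.19, edgeR adjusted p = 0.133). The count was 0 without WT replicate 1, 1 without WT replicate 2, 2 without LSKO replicate 2, 14 without LSKO replicate 1 and 4 by DESeq2 over the 8 libraries. LSKO replicate 2 was below LSKO replicate 1 in 29 of the 31 genes.
Of 16 markers of sinusoidal endothelial cells, 0 were higher, 6 were lower and 10 were not called (median -0.56). Stab2, a scavenger receptor of these cells, had 24.0 and 14.6 in LSKO cells and 32.6 and 33.7 in WT cells (-0.79), and Stab1 had 31.7 and 21.9 in LSKO cells and 43.1 and 48.6 in WT cells (-0.78). Lyve1, another marker, had 24.8 and 27.6 in LSKO cells and 28.1 and 29.8 in WT cells (-0.14) and was not called. The count was 0 without WT replicate 1 and without WT replicate 2, 1 without LSKO replicate 2, 11 without LSKO replicate 1 and 3 by DESeq2 over the 8 libraries. Of 40 genes of the cytoskeleton and of hepatocyte dedifferentiation, 7 were lower and 2 were higher (median -0.08), among them the osteopontin gene Spp1, with 41.4 and 26.96 in LSKO cells and 61.3 and 62.6 in WT cells (-0.86). Of 30 genes of the Notch pathway, 3 were lower and 0 were higher (median -0.05): the ligand Jag1 (-0.74), Aph1a of gamma-secretase (-0.59) and the transcription factor Rbpj (-0.58). Without WT replicate 1 and WT replicate 2, the counts of lower genes were 2 and 2 for the cytoskeleton list, which had 4 without LSKO replicate 2, and 1 and 1 for the Notch pathway.

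The lists of metal transport and metal-dependent proteins held 0 to 4 called genes in either direction. Of 10 ZIP importers tested beside Slc39a8, edgeR and DESeq2 over the 8 libraries each called 0. Before adjustment 2 had a p under 0.05, both of them lower. The smallest p was that of Slc39a6 (-0.41, with 58.1 and 51.1 normalized CPM in LSKO cells and 70.9 and 74.2 in WT cells). Slc39a14, which encodes ZIP14, the closest relative of ZIP8, had 72.9 and 84.9 in LSKO cells and 67.5 and 71.9 in WT cells (0.18, edgeR adjusted p = 0.221). Of 7 ZnT exporters, Slc30a4 was lower, with 147 and 114 in LSKO cells and 189 and 182 in WT cells (-0.51). It was not called without either WT replicate, without LSKO replicate 2 or with the length and GC correction. Mt1, a metallothionein that binds zinc and rises with it, had 741 and 788 in LSKO cells and 561 and 565 in WT cells (0.44, edgeR adjusted p = 0.00280), within the limit for a call. Of 30 genes of iron handling, 4 were higher and 1 was lower (median -0.05). The rises were 1 without WT replicate 1, 2 without WT replicate 2, 7 without LSKO replicate 1 and 2 without LSKO replicate 2. Hfe2, the hemojuvelin that controls hepcidin, had 6.56 and 10.7 in LSKO cells and 2.78 and 2.79 in WT cells (1.64), and the hepcidin gene Hamp had 3.22 and 4.16 in LSKO cells and 2.57 and 2.09 in WT cells (0.66, edgeR adjusted p = 0.0769). Hmox1, which degrades heme, had 286 and 220 in LSKO cells and 378 and 353 in WT cells (-0.53), a call lost without either WT replicate and without LSKO replicate 2, while 4 iron genes were lower without LSKO replicate 1. Of 23 genes of a glycosylation list, in which a need for manganese was not checked for each member, 1 was higher and 2 were lower (median 0.01). Neither fall was called without WT replicate 1, WT replicate 2 or LSKO replicate 2. St3gal1, a sialyltransferase, had 174 and 241 in LSKO cells and 100 and 106 in WT cells (1.02). Among selenoprotein genes, the glutathione peroxidase gene Gpx3 was higher, with 7.89 and 11.6 in LSKO cells and 5.48 and 4.23 in WT cells (1.00). Of 22 selenoprotein genes, 4 were higher (median 0.16), with 2 without WT replicate 1 and 0 without WT replicate 2, and the glutathione peroxidase genes Gpx1 and Gpx4 were not called (0.32 and 0.00).

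Several other lists held few calls. Of 78 genes of cytosolic ribosomal proteins, edgeR and DESeq2 over the 8 libraries each called 0. At p under 0.05 before adjustment, 10 were higher and 6 lower in edgeR, and the median was 0.03. Oxidative phosphorylation held 2 rises among its 76 nuclear genes (median 0.11), and of 27 genes of the unfolded protein response, 1 was higher (median 0.01). Cholesterol synthesis (1 higher of 26, median 0.11), p53 targets (1 higher of 24, median -0.03) and heat shock genes (1 lower of 24, median 0.05) likewise held 1 call each. Of these single calls none was made without either WT replicate. The 13 genes of the mitochondrial genome had a median of -0.28, with 7 lower and 2 higher at p under 0.05 before adjustment, and a median log2 ratio to the WT mean of -0.13 in LSKO replicate 1 and -0.45 in LSKO replicate 2. Of these, mt-Nd4 was lower, with 2514 and 2031 normalized CPM in LSKO cells and 3465 and 3597 in WT cells (-0.64), a call lost without either WT replicate and without LSKO replicate 2. Of the same genome, mt-Co3 was higher, with 27.3 and 22.7 in LSKO cells and 14.8 and 12.9 in WT cells (0.85), and so was mt-Atp6 (0.58). The 13 genes were lower in LSKO replicate 2 than in LSKO replicate 1 without exception.

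At the same minimum of 100 normalized counts, most of the largest falls concerned near-identical gene copies or overlapping genes. Rps12-ps3 (chromosome 19, 59322290 to 59322783), a copy of the ribosomal protein gene Rps12 annotated as protein-coding, had 0.485 and 0.625 normalized CPM in LSKO cells, against 178 and 184 in WT cells (-8.32, edgeR adjusted p = 1.15e-10). In LSKO cells given iron, selenite or zinc it had 131, 271 and 212, and in those given manganese, where 62 reads were set aside for low quality, it had 0.339. Rps12 itself had 773 and 742 in LSKO cells and 586 and 551 in WT cells, and the 2 genes summed to 774 and 742 in LSKO cells and 764 and 735 in WT cells. The summed levels of the groups overlapped. So did those of Rpl9 with its copy Rpl9-ps6, 694 and 699 in LSKO cells and 694 and 641 in WT cells, while Rpl9-ps6 alone had 12.5 and 8.76 in LSKO cells and 75.7 and 77.4 in WT cells (-2.86). Mup10 and Mup13, major urinary protein genes with many near-identical neighbours, had -3.63 and -3.48, whereas the level summed over 20 Mup genes was 4121 and 5845 in LSKO cells and 3623 and 3686 in WT cells. Of the 250 lower genes, 26 had levels in the iron, selenite and zinc libraries that were each over 2-fold above both untreated LSKO libraries, against 1 of the 739 higher genes in the opposite direction. The summed levels did not overlap for Rps27 with Rps27rt (280 and 298 in LSKO cells, 254 and 258 in WT cells). Nor did they for Gsta1 with Gsta2 (109 and 117 in LSKO cells, 197 and 176 in WT cells). The same held for Ftl1 with Ftl1-ps1 (3421 and 3214 in LSKO cells, 3621 and 3584 in WT cells). Of the 12 largest falls by the rule for named genes, 10 turned direction in the mean of the iron, selenite and zinc libraries against WT, all but Slc39a8 and a copy of Ptp4a1. Beside those above they were Rps27rt, Mup22, Ftl1-ps1, Nphs1, Uimc1 and Sp9. These falls are uncertain, and the part of read processing or of the added metals in them was not tested. Processed pseudogenes, mostly copies of expressed genes, were called far more often than protein-coding genes, with 177 of 863 higher (20.5%) and 258 lower (29.9%). Nphs1, Uimc1, Sp9 and Ftl1-ps1 overlap an exon on the opposite strand. The glutathione transferase gene Gsta1 shared the pattern, with 88.5 and 87.9 in LSKO cells, 257, 433 and 449 with iron, selenite and zinc, and 178 and 160 in WT cells.

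**Figure D4:**
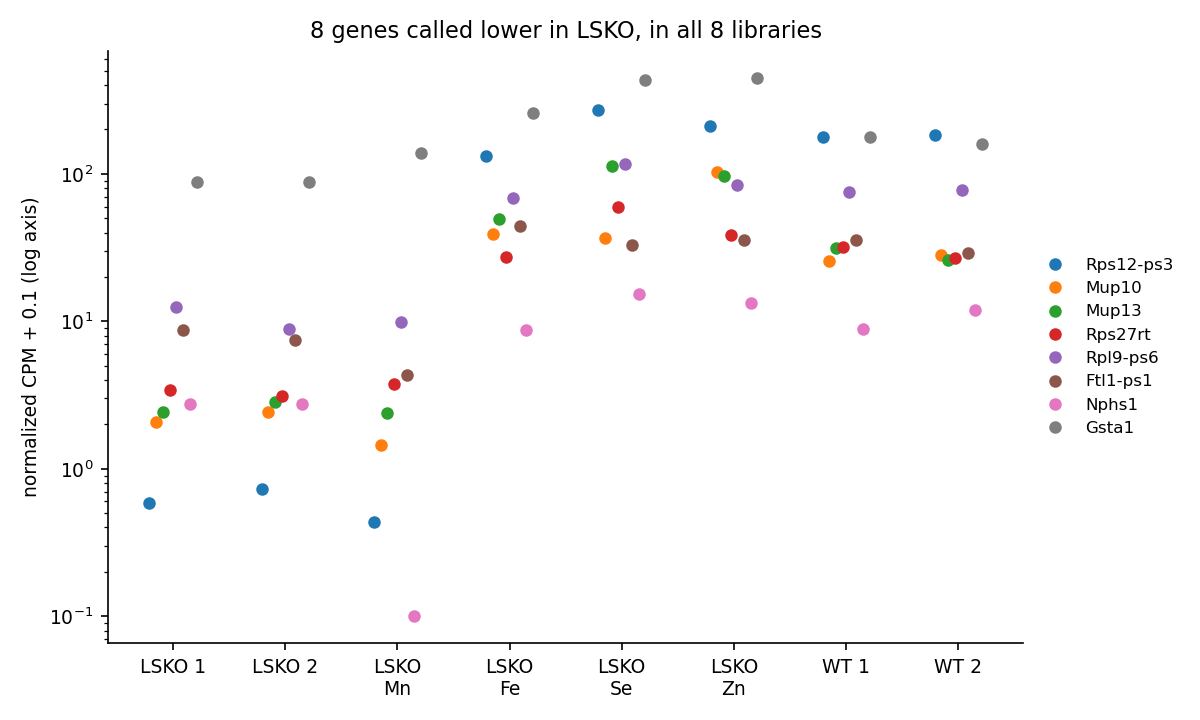
Normalized CPM plus 0.1 (vertical log axis) of 8 genes called lower in LSKO cells, in all 8 libraries (horizontal axis), with colours for genes. The points lie low in both untreated LSKO libraries and the manganese library and near or above the WT level in the iron, selenite and zinc libraries. Gsta1 differs in lying between the untreated LSKO and WT levels with manganese. For Nphs1 and Ftl1-ps1, which overlap an exon on the opposite strand, the manganese level may not be comparable with the others.

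The 2 untreated LSKO libraries differed in how far they stood from WT. Of the 739 higher genes, LSKO replicate 2 was above LSKO replicate 1 in 708 (95.8%), and of the 250 lower genes it was below in 215 (86.0%). Over all protein-coding genes tested it was above in 49.3%. The median log2 ratio to the WT mean over the higher genes was 0.70 in LSKO replicate 1 and 1.07 in LSKO replicate 2, and over the lower genes it was -0.54 and -0.91, where 0.5 was added to each normalized CPM. The library with fewer Slc39a8 reads was thus the farther from WT in both directions. With 2 libraries no relation to the level of Slc39a8 can be tested. The order held in most lists, such as 21 of 21 acute phase proteins, 33 of 38 genes of the urea cycle and amino acid breakdown and 32 of 35 P450 genes, while the ribosomal protein genes were divided, with 43 of 78 higher in LSKO replicate 2.

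**Figure D5:**
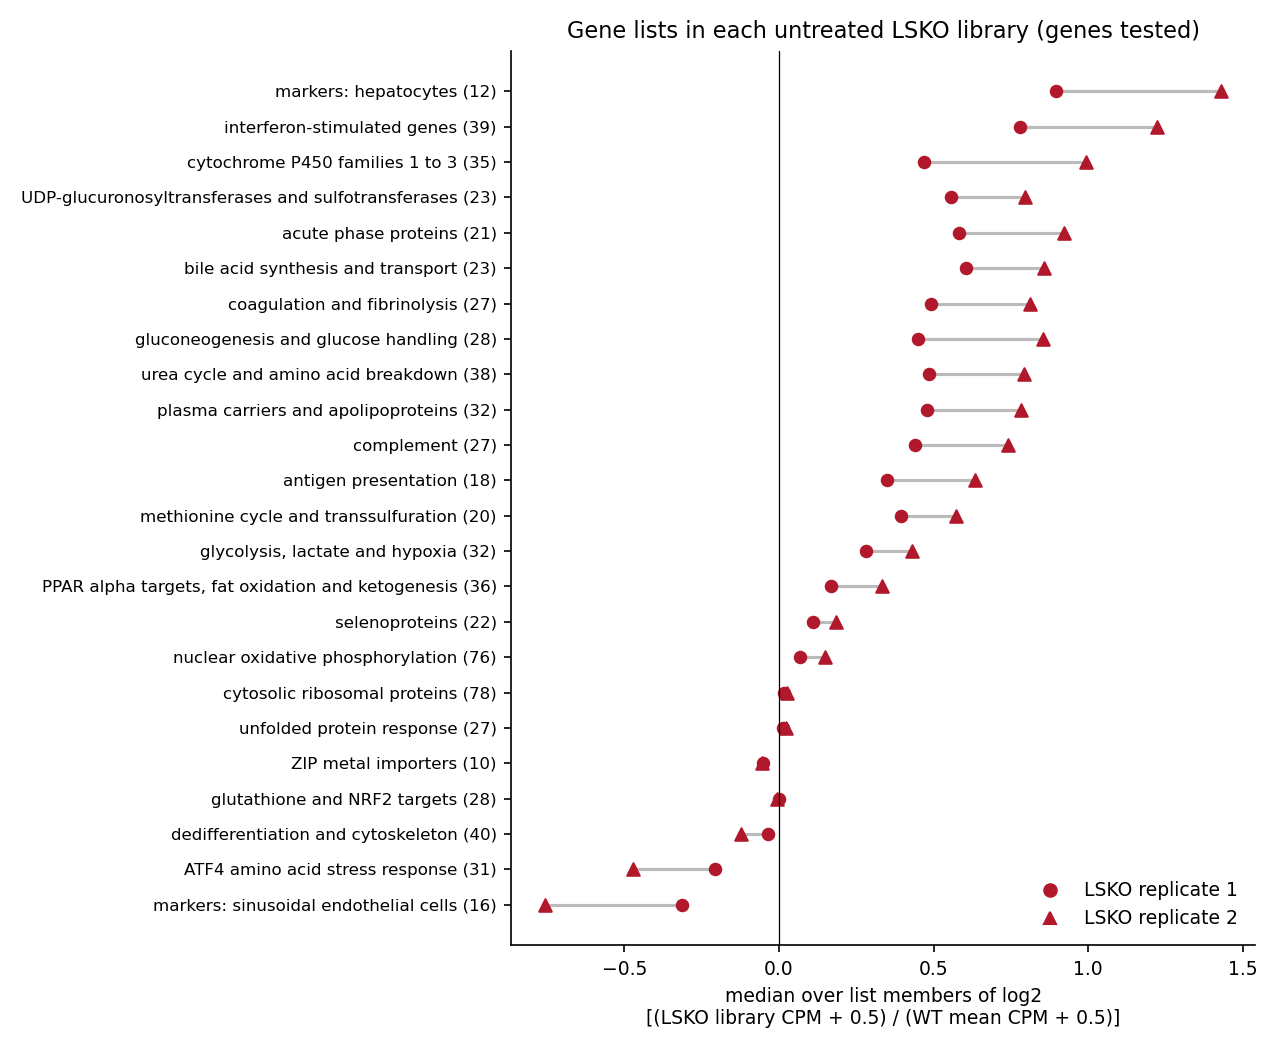
Median over the tested members of each gene list (vertical axis, number tested in brackets) of the log2 ratio of a library to the WT mean (horizontal axis, with 0.5 added to each normalized CPM), for LSKO replicate 1 (circles) and LSKO replicate 2 (triangles). The triangle lies farther from 0 than the circle in the liver and interferon lists and in the ATF4 and endothelial lists, and both lie near 0 for ribosomal proteins.

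LSKO cells given iron, selenite or zinc, with 1 library for each metal, gave values for the same lists against the same WT libraries. The spread in this comparison came from the WT and untreated LSKO pairs, because the metal groups were not replicated. The shared WT libraries mean that these values are not independent of those above, and the metals themselves differ between the groups. In these cells Slc39a8 had 47, 30 and 45 reads, and the log2 fold change of their mean over WT was -2.92 (edgeR adjusted p = 0.00111). Interferon-stimulated genes held 33 higher of 39 (median 1.02, against 1.07 in untreated LSKO cells), the urea cycle and amino acid genes 20 of 38 (median 0.62, against 0.65), the P450 genes 20 of 35 (median 1.16, against 1.00) and the acute phase proteins 20 of 21 (median 1.27, against 0.78). Arg1 had 62.6, 83.0 and 50.6 normalized CPM with iron, selenite and zinc, Cps1 had 94.8, 129 and 90.6, and Isg15 had 93.1, 223 and 261, above their WT levels in each library. The ATF4 list held 11 lower of 31 (median -0.33, as in untreated LSKO cells), and Phgdh had 80.2, 47.5 and 62.5. Markers of sinusoidal endothelial cells held 15 lower of 16 (median -1.31, against -0.56), and the extracellular matrix list held 14 lower of 37, against 1 in untreated LSKO cells. Over all 12442 protein-coding genes tested, 925 were higher and 951 lower in this comparison, against 739 and 250 in untreated LSKO cells. The larger counts of lower list members thus stand beside a larger count of lower genes over all.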

How the data were processed

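RNA-seq read counts per gene, raw and not normalized, were deposited by the authors, who trimmed, aligned and counted reads with Trimmomatic, HISAT2 and HTSeq on GRCm38. For the annotation release, strand setting and quality minimum nothing is given in the sources used here. Summary rows (reads in no gene, ambiguous, low quality, unaligned or multiply aligned) entered neither library sizes nor tests, and those in no gene made up 42.3% to 45.7% of the untreated libraries. All 55450 identifiers matched GENCODE M21. The filter on low counts kept genes that summed to 80 or more over the 8 libraries (15468, of which 12442 protein-coding).

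edgeR 4.0.16 in R 4.3.3 was used to fit 6 groups by quasi-likelihood after TMM scaling, with the contrast LSKO minus WT, with 2 residual degrees of freedom and 8.53 from moderation. Standard errors are the size of the log2 fold change over the root of the F statistic. Adjustment (Benjamini-Hochberg) ran over all genes tested. The biological coefficient of variation was 8.29%. The fit was tested on simulated data. The study used DESeq2, here an alternative (1.42.0).

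Named genes are Slc39a8, the 12 largest rises and falls among called genes that averaged 100 or more normalized counts, with non-overlapping groups and established symbols, the same with all LSKO libraries beyond both WT libraries, and up to 4 called members of each list, or the 1 with the smallest p, and cell type markers whose level bears on a result. Otc, Psat1, Ldha, Irf7, Irf8, Gbp3, Rsad2, Ifit3, Cxcl10, Gapdh, Vegfa, Atf4, C1qb, Slc39a14, Hamp, Gpx1, Gpx4, Gsta2, Rps12, Rps27, Rpl9 and Ftl1 are named beyond that rule, after their values were seen. Alternatives were another scaling, DESeq2, other filters, each library left out, a replicate block, a length and GC correction and other sets of LSKO libraries. Some genes that the rule names are not reported here. Comparison, lists and members were chosen with earlier results of these data known. Promoter windows are from RefSeq (GRCm38.p6), matched by symbol.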

Additional observations from a re-analysis of the deposited data

How the results depend on the processing

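The counts of 739 higher and 250 lower protein-coding genes were recomputed under each alternative. Leaving out each replicate gave 318 to 1070 higher and 55 to 437 lower genes. Lower genes numbered 115 by DESeq2 over 8 libraries, 387 with no filter on low counts, 1100 for the mean of 5 LSKO groups and 951 for the mean of the iron, selenite and zinc libraries against WT, an alternative chosen after seeing the data. Beyond 1 on the log2 scale, 368 and 65 genes remained. The other alternatives gave 522 to 960 higher and 189 to 337 lower genes.

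The log2 fold change of Slc39a8 ranged from -2.88 to -0.78 with each replicate left out, with calls lost without either WT replicate. It was -1.50 and -1.51 by DESeq2 over 8 and 4 libraries, where it was not called.

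The correlation of the replicate differences of LSKO and WT was -0.12, so no shared effect of the replicate number was seen. It cannot show whether the samples were prepared in pairs, which the sources used here do not say. With the replicate number as a block, 754 genes were higher and 324 lower, and 715 and 337 with the length and GC correction added. A crossed pairing, chosen after seeing the data, gave 745 and 323.

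Against WT, the mean of the iron, selenite and zinc libraries reversed Rps12-ps3 (0.12), Mup10 (0.98), Mup13 (1.51), Rps27rt (0.43), Rpl9-ps6 (0.20), Mup22 (0.78), Ftl1-ps1 (0.21), Nphs1 (0.22), Uimc1 (0.22), Sp9 (0.088), Hmox1 (0.16), Gsta1 (1.13), mt-Co3 (-0.12) and mt-Atp6 (-0.11). The mean of 5 LSKO groups reversed Hmox1 (0.018), Gsta1 (0.43), mt-Co3 (-0.39) and mt-Atp6 (-0.45). The cause was not tested. Slc39a8 rests on 51 to 367 reads in each of the 4 libraries.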
